A study of Homo sapiens with 2 samples.

Results

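NF-kB is a family of dimeric transcription factors, and the 10 genes described here are 4 of its subunit genes, 2 of its feedback inhibitors and 4 genes known as its targets. They were chosen by name: NFKB1, NFKB2, RELA, RELB, NFKBIA, TNFAIP3, CXCL8, CXCL1, ICAM1 and SOD2, which are 10 of the 23170 genes named in the data. A transcript model belonged to a gene if its RefSeq accession carried the gene's symbol, or if it was an assembled model with an exact intron of the gene on the same strand. This gave 27 models in the control library, of which 19 held fragments, and 28 in the other, of which 20 did. Polyadenylated RNA was sequenced from HCT116, a line of human colorectal carcinoma cells that carries a tetracycline-inducible construct against USP49, as 1 library labelled control and 1 labelled USP49 knockdown. USP49 is a ubiquitin-specific protease that acts on histone H2B. The protocol text gives harvest 36 h after doxycycline for both libraries, and does not say whether the RNA control received the drug. Both libraries come from cells with the construct, and the labels do not say whether the line is 1 clone. The study set out to compare expression with and without the knockdown.

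In resting cells NF-kB dimers are held in the cytoplasm by inhibitory IkB proteins. Signals from cytokine receptors activate the IKK kinase, which marks IkB for degradation, and the freed dimers enter the nucleus and switch on genes for chemokines, adhesion molecules and survival proteins. The targets include NFKBIA and TNFAIP3, whose products shut the pathway down again, so that NF-kB limits its own activity.

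NF-kB dimers bind a short DNA element, the kB site. The genes were chosen by name as known NF-kB genes, so promoter matches are not independent of that choice and are shown for their sequence. RefSeq promoter windows of GRCh38.p14 were searched over the 250 bases before each start, on both strands, for the kB consensus and for the shorter string GGNNNTTCC; where both match they can share bases, and they were then printed as 1 stretch. A match was present in 8 of the 16 windows of these genes, from 7 of the 9 genes with a window, where 22.1% of all 34943 windows had one (9.95% for the consensus and 17.1% for GGNNNTTCC). NFKB1, NFKB2, NFKBIA, TNFAIP3, CXCL8, CXCL1 and ICAM1 had a match, which for CXCL8 and ICAM1 was to GGNNNTTCC only. RELA and SOD2 had none in this range, and RELB had no window. A match is a string of letters and not a measured binding site. One match per gene is printed in 30 bases, 5′ to 3′ on the gene's strand, with the matched bases in capitals.
NFKB1, chr4:102501300-102501329, plus strand: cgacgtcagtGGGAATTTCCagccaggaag
NFKB2, chr10:102395674-102395703, plus strand: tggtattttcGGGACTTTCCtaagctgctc
NFKBIA, chr14:35404811-35404840, minus strand: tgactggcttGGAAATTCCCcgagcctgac
TNFAIP3, chr6:137867182-137867211, plus strand: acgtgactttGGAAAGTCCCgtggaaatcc
CXCL8, chr4:73740467-73740496, plus strand: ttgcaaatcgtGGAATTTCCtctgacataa
CXCL1, chr4:73869304-73869333, plus strand: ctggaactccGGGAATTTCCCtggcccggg
ICAM1, chr19:10270923-10270952, plus strand: tgctttagcttGGAAATTCCggagctgaag
The matches began 49 bases before the start for NFKB1, 21 for NFKB2, 81 for NFKBIA, 67 for TNFAIP3, 91 for CXCL8, 79 for CXCL1 and 186 for ICAM1. These are GRCh38 positions, while all positions given with RNA values are those of the deposited hg18 files.

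The control library held 16373422 fragments and the library labelled USP49 knockdown 19956443, a ratio of 1.22, and levels are given in FPKM, the number of fragments scaled to exon length and to these totals. A gene's level is the density of fragments on its RefSeq exons, with an exact 95% Poisson interval that covers counting error only. Ratios are on the log2 scale, with 1 FPKM added to both values as a pseudocount and control as the denominator, which understates changes of low genes. With 1 library per group there is no replicate check and no test. In bulk RNA, fewer cells that express a gene and less RNA per cell cannot be told apart. The targeted gene did not settle the label: exon density of USP49 was 0.894 FPKM in the control library against 1.09 in the library labelled USP49 knockdown. The sum over its models was 2.88 and 1.10 FPKM, and the log2 ratio was 0.14 by exon density and −0.88 by the sum. On the models of USP49 lay 206 and 69 fragments, a ratio of 0.275 (0.206 to 0.363), and on its RefSeq exons 47 and 69. The control models that held fragments run to 41869189, past the RefSeq end at 41873361, where the model of the other library stops. The ratio on models therefore compares different bases. Within 5000 bases outside USP49, an unspliced model without a strand held 168 fragments in the library labelled USP49 knockdown and none was listed in control; these are in neither measure. The library is therefore named by its label throughout. The epithelial markers EPCAM, KRT8, KRT18, KRT19 and CDH1 all passed 1 FPKM and summed to 568 FPKM for control and 523 for the other library. Of the leukocyte markers, PTPRC was at 0 in both libraries, CD14 stood at 0.169 and 0.055 FPKM, LYZ at 0.121 and 0.066, and CD3E at 0 and 0.033. The 5 endothelial markers summed to 0.218 and 0.147 FPKM, with CDH5 at 0 in both. Of 5 fibroblast markers only COL1A1 passed 1 FPKM (6.83 and 6.51 FPKM), and COL1A2 and DCN were at 0.

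No gene of the 10 differed by 2-fold or more between the libraries on exon density, and the largest ratio was that of CXCL1, a low gene. All 10 had a mean of 1 FPKM or more, although CXCL1 passed only through the library labelled USP49 knockdown and TNFAIP3 by a narrow margin. None was 2-fold or more higher and none 2-fold or more lower, where 0.435% and 0.639% of all 11729 genes were, or 1.07% in either direction. By the sum over models with the same pseudocount none of the 10 passed 2-fold, where 1.47% of all 11557 genes were higher and 1.59% lower, 3.06% in either direction. With a pseudocount of 0.1 FPKM on the sum, chosen after seeing the data, CXCL1 passed at a log2 ratio of 1.03 and the other 9 did not. Of all genes 1.88% were then higher and 2.13% lower, 4.01% in either direction. Of the 10, 6 lay above 0 and 4 below, with a median log2 ratio of 0.07 beside −0.0041 over all genes. The lowest was ICAM1 at −0.23 and the highest CXCL1 at 0.46. The middle 95% of all genes ran from −0.32 to 0.25, and CXCL8 and CXCL1 lay above it.

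The order of the levels was nearly the same in both libraries. SOD2 and RELA were highest in control, with intervals that overlap each other, followed by NFKB2 and then by NFKB1 and NFKBIA, whose intervals also overlap. ICAM1 and RELB came next with overlapping intervals, and CXCL8, TNFAIP3 and CXCL1 were lowest, near 1 FPKM. In the library labelled USP49 knockdown SOD2 stood above RELA with intervals apart, and CXCL1 and TNFAIP3 changed places with intervals that overlap. Of the 11729 counted genes, those averaging at least 1 FPKM across the libraries, 84.7% had a lower exon density than RELA in control. For RELB this share was 19.7% and for CXCL1 0.341%. The cut-off leaves few counted genes under 1 FPKM in control, and CXCL1 was counted only through the other library. Its place near the bottom therefore follows from the cut-off and is not a rank among all genes in control.

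**Figure D1:**
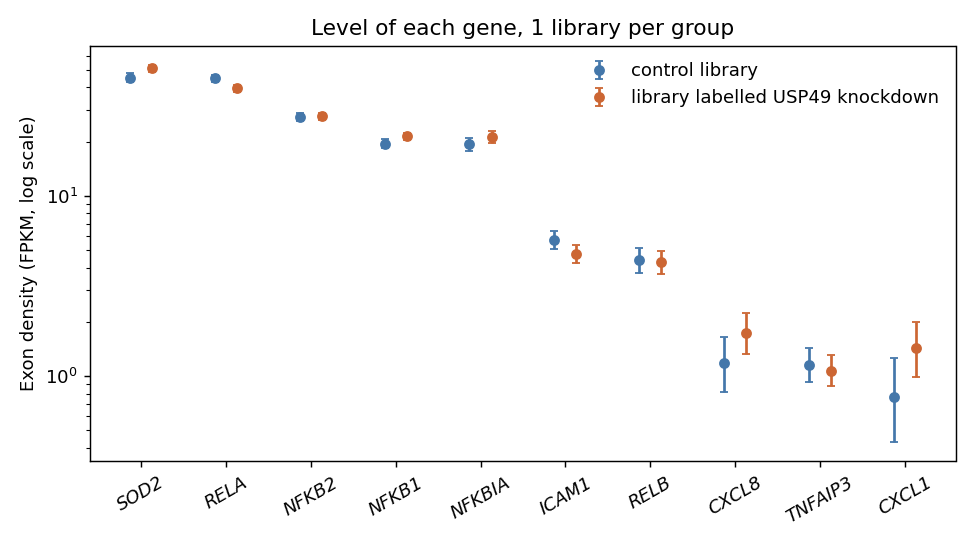
Exon density in FPKM (log axis) of each gene in the control library (blue) and the library labelled USP49 knockdown (orange), 1 library each; bars are 95% Poisson intervals of counting. SOD2 and RELA lie near 45 FPKM in control and CXCL8, TNFAIP3 and CXCL1 near 1 FPKM, with the widest bars for CXCL1 and CXCL8.

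Of the subunits, RELA was the most abundant. It encodes a subunit with a transactivation domain that pairs with the NFKB1 product, and lies on chromosome 11 at 65177643 to 65187019 (minus strand, 11 exon blocks). Exon density was 45.1 FPKM in the control library (43.1 to 47.2) against 39.5 in the library labelled USP49 knockdown (37.8 to 41.3). The intervals do not overlap, and the control library was the higher, by a log2 ratio of −0.19. All RELA fragments lay on the same RefSeq model in both libraries, 1905 and 2033. Within 5000 bases outside the gene, 2 unspliced models without a strand held 34 fragments in the library labelled USP49 knockdown and none did in control; they are not counted in RELA. The depth-scaled fragment ratio was 0.876, with an exact 95% counting interval of 0.822 to 0.933. Counting intervals of this kind lay wholly below 1 for 19.3% of all 11469 genes with such a ratio and wholly above 1 for 19.2%. Among 4425 genes with a fragment number within 2-fold of that of RELA, the middle 95% of log2 ratios ran from −0.22 to 0.19, which holds RELA.

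The 3 other RefSeq forms of RELA were listed at 0 in both libraries. The closest lacks 9 bases at the start of an exon. The sequences across that junction, from GENCODE transcripts matched to the RefSeq accessions, show what separates them, with the 9 bases in capitals (the same letters result if they are placed up to 2 bases away).
RELA, form with the fragments: cccttccaagTTCCTATAGaagagcagcg
RELA, form listed at 0: cccttccaagaagagcagcg

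NFKB1 encodes the precursor of the DNA-binding partner of RELA and lies on chromosome 4 at 103641518 to 103757507, on the plus strand, in 24 exon blocks. The gene stood at 19.5 FPKM in the control library (18.5 to 20.6) against 21.5 in the library labelled USP49 knockdown (20.5 to 22.5). The intervals overlap by a little and the log2 ratio was 0.13. On its models 1309 and 1770 fragments gave a ratio of 1.11 (1.03 to 1.19).

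NFKB1 differed more along its length than in total. Exon blocks 1, 2, 3 and 5 stood at 8.46 FPKM for control against 17.9 for the library labelled USP49 knockdown, a log2 ratio of 1.00 after rounding. Blocks 6 to 9 stood at 21.9 and 17.9 FPKM (−0.28), and blocks 10 to 24 at 21.9 and 23.2 (0.08). These steps follow the models of each assembly. In control an assembled model that starts at 103700517, past the first 5 exon blocks, held 743 of the fragments, 56.8%. In the library labelled USP49 knockdown the partial model started at 103722930 and held 308, 17.4%. The deposited models hold no read positions, and for exon density their fragments were spread evenly over each model. The 5′ difference therefore cannot be told apart from a different choice of models.

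The assemblies also divided NFKB1 between the RefSeq forms in different ways. The forms differ by 3 bases at an exon start, where CAG follows CAG, shown in capitals.
NFKB1, longer form: gcactgccaacagCAGatggcccatacct
NFKB1, shorter form: gcactgccaacagatggcccatacct
In control the longer form held 344 fragments and the shorter 222. In the library labelled USP49 knockdown the longer held 1167 and the shorter was listed at 0. All 24 RefSeq introns of both forms were still in models with fragments there, so the junction of the shorter form lay on an assembled model. An assembled model of 25 exons held 295.4 fragments in that library and the partial model, of 15 exons, 307.8. The capitals could stand 3 bases away with the same letters. The forms share all but 3 of the 4087 bases of the longer one.

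NFKB2, the precursor of the subunit used in the non-canonical branch, lies on chromosome 10 at 104144327 to 104152276. Exon density was 27.5 FPKM in the control library (26.1 to 28.9) against 27.7 in the library labelled USP49 knockdown (26.5 to 28.99), with a log2 ratio of 0.01. The values were level, and the fragment ratio of 1.06 (0.986 to 1.13) from 1503 and 1934 fragments takes in 1. The form that starts at 104144327, from the first annotated start, held 310 fragments in the control library against 306 in the other, or 20.6% and 15.8% of those of the gene. The form that starts at 104145417 held 538 and 751, and the form that starts at 104145422 held 655 and 290, while 2 assembled models with 198 and 388 fragments were listed for the library labelled USP49 knockdown. The last 3 exon blocks stood lower in that library, at 24.6 FPKM against 29.6 in block 21 (−0.26). With fragments spread evenly over each model, this step cannot be told apart from a different choice of models.

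RELB, the partner of the NFKB2 product, lies on chromosome 19 at 50196547 to 50233296 and was the least abundant subunit of the 4. It stood at 4.397 FPKM in the control library (3.75 to 5.13) against 4.30 in the library labelled USP49 knockdown (3.71 to 4.94), with a log2 ratio of −0.03. By the sum over models the values were 5.48 and 4.39 FPKM and the ratio −0.27. On its models lay 170 and 195 fragments, a ratio of 0.941 (0.762 to 1.16). The control fragments were split between the RefSeq model, 71.7, and an assembled model of the last 8 exons, 98.3, where the RefSeq model held all 195 in the other library. With fragments spread evenly over each model, exon blocks 1 to 3 stood at 1.93 and 4.30 FPKM (0.86) and blocks 4 to 11 at 5.35 and 4.30 (−0.26).

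The feedback inhibitors came next. NFKBIA encodes IkB alpha and lies on chromosome 14 at 34940467 to 34943711 (minus strand). Like RELA it was carried by the same RefSeq model in both libraries and by no other. The model held 496 fragments for control and 668 for the library labelled USP49 knockdown, a ratio of 1.10 (0.982 to 1.24). Exon density was 19.3 FPKM (17.7 to 21.1) and 21.4 (19.8 to 23.04), with overlapping intervals and a log2 ratio of 0.14.

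TNFAIP3, a ubiquitin-editing enzyme that dampens signalling above IKK, lies on chromosome 6 at 138230018 to 138246144. It was far less abundant than NFKBIA, at 1.16 FPKM in the control library (0.933 to 1.43) against 1.07 in the library labelled USP49 knockdown (0.8796 to 1.31). The log2 ratio was −0.06 and the fragment ratio 0.920 (0.686 to 1.23), from 91 and 102 fragments. The full-length fragments sat on different RefSeq forms, which are listed with 9 exons each: a form of 4690 bases in control held 47.8 and a form of 4714 bases in the other library 73.2. The rest lay on assembled models of the last 5 exon blocks, and the log2 ratio was 0.17 in block 1 and −0.10 in block 9.

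Among the targets, the chemokine genes had the largest ratios and the fewest fragments. CXCL8 encodes interleukin-8, which attracts neutrophils, and lies on chromosome 4 at 74825087 to 74828297. Exon density was 1.19 FPKM in the control library (0.814 to 1.66) against 1.73 in the library labelled USP49 knockdown (1.32 to 2.24), with overlapping intervals and a log2 ratio of 0.32. The models held 34 and 59 fragments, a ratio of 1.42 (0.918 to 2.24), which takes in 1. Along the gene, blocks 1 and 2 stood at 0.761 and 1.73 FPKM (0.63) and blocks 3 and 4 at 1.30 and 1.73 (0.25), since 12.8 of the control fragments lay on an assembled model of 2 exons.

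CXCL1, a chemokine of the same cluster, lies at 74953973 to 74955883. This gene stood at 0.769 FPKM in the control library (0.430 to 1.27) against 1.43 in the library labelled USP49 knockdown (0.990 to 1.997), with a log2 ratio of 0.46. The sums over its models were 0.817 and 1.77 FPKM, a log2 ratio of 0.61 with the pseudocount of 1 FPKM. The fragment ratio from 15 and 35 fragments was 1.91, with a counting interval of 1.02 to 3.77 that lies just above 1. On exon density the interval of the ratio, 0.986 to 3.67, takes in 1. Genes with so few fragments scattered widely: among 272 with a number within 2-fold of that of CXCL1 the middle 95% of log2 ratios ran from −1.23 to 0.71. Among 652 such genes for CXCL8 it ran from −1.76 to 0.42. Both chemokine genes thus lay within the scatter of genes with a like number of fragments. These genes were picked by fragments on models, while their ratios are of exon density, which can draw on further models. With fragments spread evenly over each model, exon block 1 of CXCL1 stood at 0.784 and 0.772 FPKM and block 4 at 0.784 and 1.69. In the library labelled USP49 knockdown 17 of the fragments lay on an assembled model of 2 exons that covers the last 2 blocks, and this step cannot be told apart from a different choice of models.

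ICAM1, an adhesion molecule that leukocytes bind, lies on chromosome 19 at 10242517 to 10258291. Exon density was 5.73 FPKM in the control library (5.11 to 6.42) against 4.75 in the library labelled USP49 knockdown (4.24 to 5.32), the lowest ratio of the 10 at −0.23. The intervals overlap by a little. In control 35.5 of the fragments lay on an assembled model of 6 exons, and in the other library all lay on the RefSeq model. With 306 and 308 fragments the libraries had nearly the same number before scaling, and the depth-scaled ratio was 0.826 (0.703 to 0.971). Among 3196 genes with a like number of fragments the middle 95% ran from −0.36 to 0.27, which holds ICAM1.

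SOD2, the mitochondrial superoxide dismutase, lies on chromosome 6 at 160020139 to 160034343 (minus strand). It stood at 45.4 FPKM in the control library (43.0 to 47.9) against 51.0 in the library labelled USP49 knockdown (48.7 to 53.4), with intervals apart and a log2 ratio of 0.17. Over all fragments on its models, 2563 and 3110, the ratio was 0.996 (0.945 to 1.05). The measures count different bases: most SOD2 fragments lay on an assembled model that runs past the RefSeq exons, 3982 bases long with 2072.5 fragments for control and 3760 bases long with 2259 for the library labelled USP49 knockdown. The RefSeq form that ends at 160022745 was listed at 0 in control and held 374 fragments in the other library. The form with 6 exons held 490.5 and 477.5 fragments, 19.1% and 15.4% of those of the gene. Scaled to depth it stood at 30.7 FPKM for control and 24.5 for the library labelled USP49 knockdown. Exon block 5, where the forms part, stood at 37.1 and 46.1 FPKM (0.31), block 6 at 29.3 and 23.4 (−0.31) and blocks 1 to 4 at 61.0 and 65.2 (0.09).

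**Figure D2:**
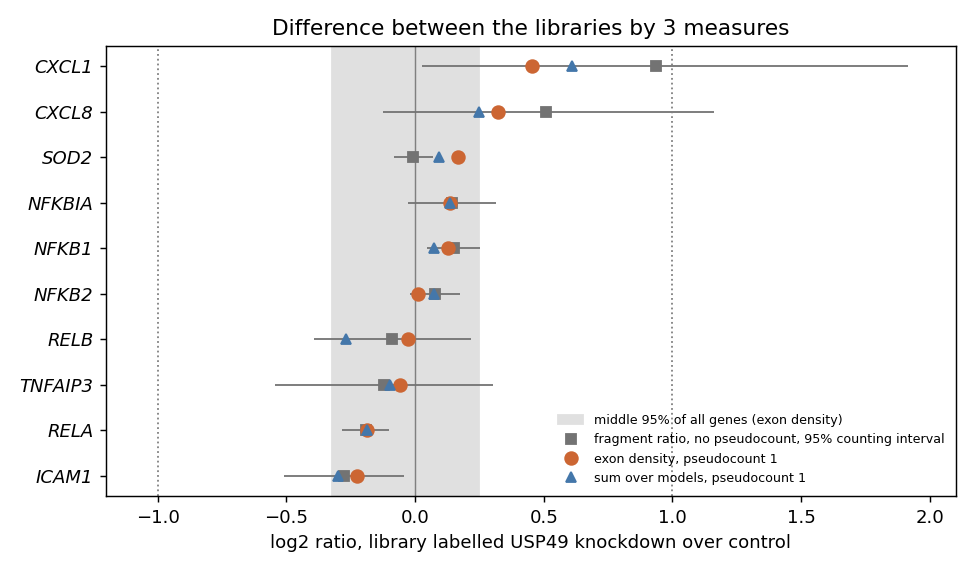
Log2 ratio of the library labelled USP49 knockdown over control of each gene by exon density (circles), by the sum over models (triangles) and by fragment number (squares, with the exact 95% counting interval); the grey band is the middle 95% of all genes by exon density, and dotted lines mark 2-fold. All circles lie between −0.23 and 0.46, and the chemokine genes have the widest intervals.

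Over the 10 genes together, counting intervals of the fragment ratio lay wholly above 1 for NFKB1 and CXCL1 and wholly below 1 for RELA and ICAM1, 2 and 2 of 10, near the 19.2% and 19.3% over all genes. Among the subunits NFKB1 had a ratio above 1 and RELA one below. CXCL1 is in this count through the library where it is high, and its interval on exon density takes in 1. The first exon block, in the direction of transcription, differed by more than 0.5 on the log2 scale in 3 genes, NFKB1, RELB and CXCL8, each with the library labelled USP49 knockdown higher. Over all 11418 genes with several exon blocks it did so upward in 7.76% and downward in 8.66%. In each of the 3 genes control held an assembled model that starts past the first block. These differences cannot be told apart from a different choice of models. The last block passed 0.5 in CXCL1 only, beside 2.47% upward and 3.28% downward over all genes. The threshold of 0.5 was taken after these values had been seen.

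**Figure D3:**
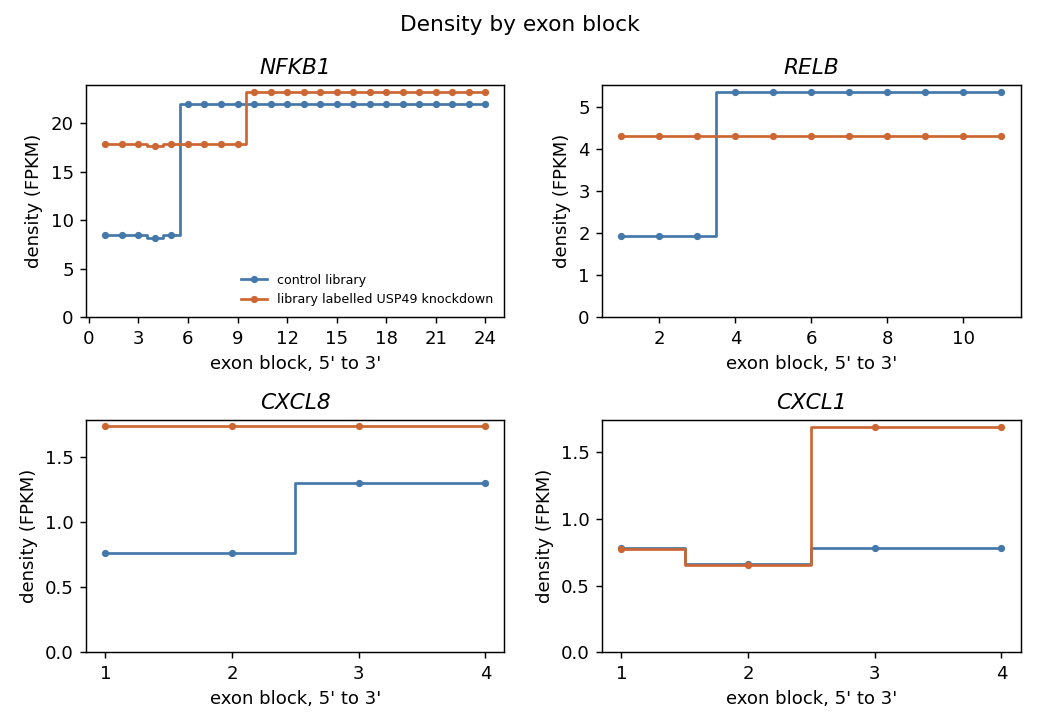
Density in FPKM by exon block, numbered 5′ to 3′, for NFKB1, RELB, CXCL8 and CXCL1 in the control library (blue) and the library labelled USP49 knockdown (orange). The steps lie where partial assembled models start, and NFKB1 stands at 8.46 and 17.9 FPKM in block 1 and at 21.9 and 23.2 in block 24.

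The introns of the models were nearly the same in both libraries. Every RefSeq intron of NFKB1, NFKB2, RELB, NFKBIA, CXCL8 and ICAM1 was present in models with fragments in both libraries. Of 13 RefSeq introns of RELA the same 10 were present, of 6 of SOD2 the same 5, and of 4 of CXCL1 the same 3. TNFAIP3 had 8 of 10 in each library and 7 in common. Introns outside RefSeq were few: NFKB1 had 1 in control models and 2 in the others, none in common, and NFKB2 had 2, both in the library labelled USP49 knockdown. The models were guided by RefSeq, so the presence of an annotated intron is not independent of the annotation.

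No other pathway gene passed 2-fold on exon density, where 1.07% of all genes did. Of 82 other pathway genes in 4 lists, 57 had a mean of 1 FPKM or more; 25 lay above 0 and 32 below, and the median was −0.0094. Counting intervals of the fragment ratio lay wholly above 1 for 9 and wholly below 1 for 8 of the 57. Over all genes the shares were 19.2% above and 19.3% below. Named after their values were seen, RNF11 had a fragment ratio of 1.64 (1.51 to 1.77) and a log2 ratio of 0.11 by exon density against 0.88 by the sum over models. RBCK1 had a fragment ratio of 0.746 (0.698 to 0.798), and −0.03 against −0.51. In the core list, 3 of 8 measured genes lay above 0. CHUK, the alpha kinase subunit of IKK, had the highest exon-density ratio of the pathway genes, 0.23, at 42.2 and 49.8 FPKM. REL, the remaining subunit gene, stood at 3.05 and 3.38 FPKM (0.11, and 0.30 by the sum over models). Its fragment ratio was 1.30 (1.13 to 1.49), from 342 and 541 fragments. The inhibitor gene NFKBIE stood at 8.19 and 7.57 FPKM (−0.10) and BCL3, a nuclear IkB protein, at 9.27 and 8.68 (−0.09). IKBKG was listed at 0 in both libraries and has a near-identical copy on chromosome X, so its level is not known from these files.

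Of 26 measured receptors and adaptors, 11 lay above 0 and 15 below. The lymphotoxin receptor LTBR stood at 53.1 and 46.9 FPKM (−0.18) and RNF31, a linear ubiquitin ligase, at 24.7 and 22.8 (−0.11). TRAF6, the adaptor of the interleukin-1 and Toll-like receptors, stood at 3.30 and 3.89 FPKM (0.18) and TLR3, a sensor of double-stranded RNA, at 2.29 and 2.66 (0.16). Of 10 negative regulators 8 lay above 0. CYLD, a deubiquitinase of the pathway, stood at 3.34 and 3.78 FPKM (0.14, and 0.67 by the sum over models), ITCH at 20.9 and 22.7 (0.12), TNIP1 at 15.8 and 15.1 (−0.06) and OTUD7B at 10.2 in both (−0.0064). The medians of these lists were −0.01 and 0.06.

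Many well-known targets lay under 1 FPKM in these cells. Of 32, 13 had a mean of 1 FPKM or more, 3 with a log2 ratio above 0 and 10 with one below, and their median was −0.05. CSF1, a macrophage growth factor, had the lowest ratio, at 2.05 and 1.45 FPKM (−0.32), from 165 and 142 fragments with a ratio of 0.706 (0.560 to 0.889). PLAU, the urokinase gene, stood at 34.6 and 29.7 FPKM (−0.22, and −0.02 by the sum over models). RIPK2 stood at 25.8 and 27.6 FPKM (0.09) and EFNA1 at 7.98 and 8.54 (0.09, and −0.0049 by the sum). Related chemokine genes, named after their values were seen, lay under 1 FPKM: CXCL2 stood at 0.660 and 0.779 FPKM (0.687 and 0.198 by the sum over models) and CXCL3 at 0.848 and 0.608. IL1B, CCL20, VCAM1 and BCL2A1 were listed at 0 in both libraries, as were TNF, LTB and IER3 on chromosome 6, which also have models on the alternative chromosome 6 haplotypes in the files. Such copies can leave a gene with no assigned reads, so a 0 for TNF, LTB and IER3 is not a measure of absence; for IER3 1 of the 3 models was above 0 in the library labelled USP49 knockdown.

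**Figure D4:**
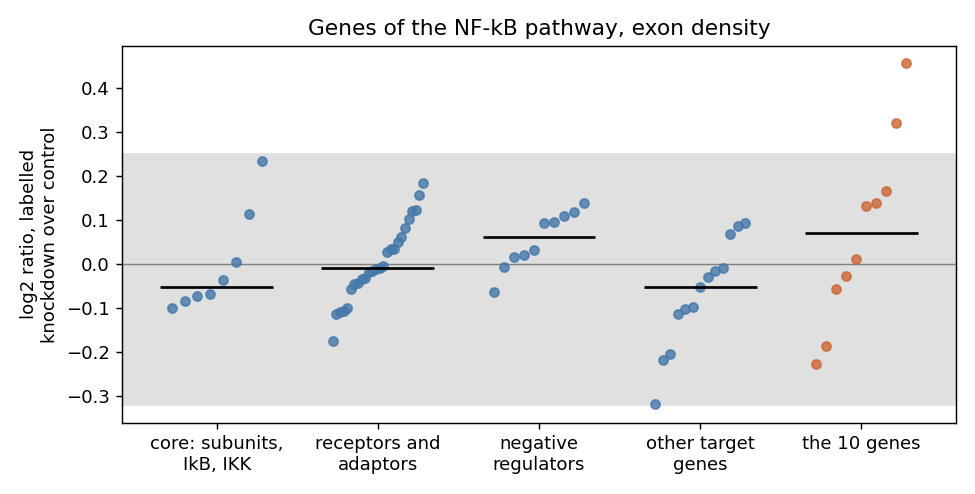
Log2 ratio of the library labelled USP49 knockdown over control (exon density, pseudocount 1 FPKM) for the measured genes of 4 pathway lists (blue) and the 10 genes described here (orange); black lines are medians and the grey band is the middle 95% of all genes. All blue points lie between −0.32 and 0.23, and the highest orange points are CXCL8 at 0.32 and CXCL1 at 0.46.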

How the data were processed

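Poly(A) RNA was sequenced from 1 control library and 1 library labelled USP49 knockdown. The deposited files are transcript models with a value named FPKM, assembled by Cufflinks per the source column of the deposited files. TopHat, Bowtie, SAMtools, Picard, bedtools and the build hg18 come from the submitters' processing notes; their versions: not given in the sources used here. These values were not divided by depth. In loci with 1 model the deposited interval gave back whole fragment numbers, within 0.02, for 94.5% of 16971 loci in control and 94.2% of 18337 in the other library. For models with a strand the value followed fragments divided by the length less 47 bases, and for models without a strand the correction was read by length. Recovered fragments on chromosomes 1 to 22, X and Y set the depth. Accessions were named from a GRCh38.p14 RefSeq table, 39275 of 41096 by accession. For exon density, fragments of a model were distributed uniformly along it, and those on the merged RefSeq exons were summed, using models on the same strand as the gene or with none, for genes of 300 or more exonic bases and a mean of 1 FPKM or more. A sum over models was kept as an alternative, because each assembly chose its own models. Intervals are exact and cover counting error only, and PCR duplicates add error beyond them. Calculations used Python 3.11.15 with NumPy, pandas and SciPy. The gene measure was tested on fragments simulated on the models of the control library alone. That test therefore did not cover assemblies that chose different models. All 10 genes are named, with the 2 lowest and 2 highest of each pathway list. The members and lists were chosen with earlier results of these data known. One gene of the leukocyte marker list is not reported here.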

Additional observations from a re-analysis of the deposited data

How the results depend on the processing

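None of the 10 genes passed 2-fold under the settings tried, except that 1 did, CXCL1 at 1.03, by the sum over models with a pseudocount of 0.1 FPKM, chosen after seeing the data; 217 of all genes were then higher and 246 lower. Under the settings that changed the gene measure, the scaling or the pseudocount, each gene kept its direction except where stated. Without depth scaling the median of all genes moved to 0.26, the median of the 10 genes to 0.35 and that of the pathway genes to 0.26. NFKB1 then stood at 0.40, NFKB2 at 0.29, RELA at 0.092, NFKBIA at 0.41, ICAM1 at 0.014 and SOD2 at 0.45. RELA, RELB, TNFAIP3 and ICAM1 changed sign, with RELB at 0.21 and TNFAIP3 at 0.097. Each of these remained below the shifted median of all genes. With depth-scaled fragment numbers on the models as the measure, chosen after seeing the data, SOD2 stood at −0.0064 in place of 0.17, and the genes past 2-fold were 210 higher and 225 lower. Over all genes, 51 higher and 75 lower of 11729 by exon density became 170 and 184 of 11557 by the sum over models. With a minimum mean of 5 FPKM they were 15 and 27 of 9103, and with TPM 84 and 108 of 12902. Depth limits CXCL8, CXCL1 and TNFAIP3, which rest on at most 102 fragments a library. No paired analysis was possible because each group has 1 library.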
